A study of Macaca mulatta with 12 samples.

Results

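Brain-derived neurotrophic factor (BDNF), neurotrophin-3 (NTF3), the receptor kinases NTRK2 (TrkB) and NTRK3 (TrkC) and the shared receptor NGFR (p75NTR) were followed through every probe set that named one of them, and only it, in the annotation of the array. That rule found 13 probe sets for 4 of the 5 genes, among 12558 probe sets other than controls that covered 8226 genes by single symbol. NTRK2 and NTRK3 had 5 probe sets each, BDNF had 2 and NGFR had 1. NTF3 had none under this rule and was not analysed here. Of the 13 probe sets, 9 were bright enough to enter the test across the array, and 4 were not: both of BDNF and 1 each of NTRK2 and NTRK3. The RNA came from the dorsal raphe nucleus, the main group of serotonin neurons of the midbrain, of 12 female rhesus macaques. Each animal had carried Silastic capsules of its treatment under the skin for 1 month and was read on 1 human U95A Affymetrix array. There were 4 groups of 3 monkeys: placebo, estrogen, progesterone, and estrogen with progesterone (called both hormones). The placebo labels carry the code for ovariectomy (OVX), the labels of the other groups do not state it, and neither the hormone dose nor the animals' ages are stated there. The progesterone arrays have codes for the combined treatment in their titles but progesterone codes as their source names, and were grouped by the latter.

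Neurotrophins are secreted survival and plasticity factors made as longer precursors that are cut to the mature ligand. Mature BDNF binds TrkB and neurotrophin-3 binds mainly TrkC. Ligand binding starts tyrosine kinase signalling through adaptors to the MAP kinase, PI3 kinase and phospholipase C routes, while p75NTR binds all neurotrophins and, with sortilin, their precursors. TrkB and TrkC also exist as truncated forms without the kinase domain, and truncated TrkB is known from astrocytes. BDNF is known to support serotonin neurons, which carry TrkB. The annotation used here does not say which TrkB or TrkC form a probe set reads.

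The probes were designed on human genes and hybridised with macaque RNA, so intensities are compared here between arrays within 1 probe set. A percentile among probe sets only marks how dim a reading was, and the summed intensity of a gene list is weighted toward its brightest probe sets. The tissue was bulk, in which fewer cells of a type and less RNA per cell cannot be told apart. Median intensity ran from 74.2 to 87.1 over the arrays. Estrogen array 1 and both-hormones array 1 stood apart, with a 28S ribosomal RNA control signal of 841 and 1350 against at most 179 elsewhere, and with a 3′ to 5′ ratio of the GAPDH control of 2.45 and 2.05 against at most 1.46. Placebo array 1 was the lowest of the 12 arrays for 14.2% of the 7535 probe sets tested, estrogen array 1 for 13.2%, both-hormones array 1 for 10.5% and the others for 4.05% to 9.87%. The serotonin transporter SLC6A4, a defining marker of its neurons, read 220 to 495 over all arrays.

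No neurotrophin or receptor probe set passed the test in any comparison. All log2 changes are from limma on quantile-normalized log2(intensity + 8.26), fitted over all 12 arrays and 7535 probe sets, with Benjamini-Hochberg adjustment over all of them and a threshold of 0.05. The 3 comparisons against placebo all use the same placebo arrays. With estrogen, limma called 0 of the 9 tested members at the adjusted threshold (0% of all probe sets), 0 at an unadjusted p under 0.05 (3.16% of all), and 0 had arrays that did not overlap with placebo (6.09% of all). With progesterone, limma called 0 of 9 (0.0398% of all), 2 passed an unadjusted p under 0.05 (8.24% of all), and 3 had arrays that did not overlap, 1 higher and 2 lower (16.8% of all). With both hormones, 0 of 9 were called by limma (0.0133% of all), 0 passed unadjusted (3.38% of all) and 0 did not overlap (8.61% of all). The median log2 change of the 9 was 0.05 (estrogen), 0.56 (progesterone) and 0.18 (both hormones), where that of all probe sets was 0.00 in each. Without placebo array 1 these medians became −0.20, −0.14 and −0.22, so their sign rests on that array.

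BDNF, the ligand of TrkB, was read near the dim end of the array, and neither of its probe sets entered the test. On 1088_at, whose mean stood at the 29.6th percentile of all probe sets, the placebo arrays gave intensities of 26.8, 26.7 and 17.1, the estrogen arrays 55.6, 22.7 and 34.3, the progesterone arrays 51.9, 31.4 and 30.6, and the arrays of both hormones 23, 24.9 and 35.9. The 3 progesterone arrays lay above the 3 placebo arrays, with means of 38.0 ± 12.1 and 23.5 ± 5.58 (SD, n = 3), while the estrogen arrays, at 37.6 ± 16.7, and those of both hormones, at 27.9 ± 6.96, overlapped with placebo. Fitted by limma without the filter on dim probe sets, estrogen gave a log2 change of 0.46 (SE 0.28, adjusted p = 0.999), progesterone 0.46 (adjusted p = 0.778) and both hormones 0.12 (adjusted p = 1.0).

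The second BDNF probe set, 40023_at, at the 32.9th percentile, gave 27.7, 21.1 and 34.2 with placebo, 23.3, 47.7 and 43.8 with estrogen, 60.9, 33.9 and 51.2 with progesterone, and 35.4, 38 and 32.7 with both hormones. Its group means followed the order progesterone (48.6 ± 13.7), estrogen (38.2 ± 13.1), both hormones (35.4 ± 2.62) and placebo (27.7 ± 6.56; SD, n = 3 each), and neighbours in that order overlapped. The limma change with progesterone, without the filter, was 0.58 (SE 0.31, adjusted p = 0.748), and the changes with estrogen and with both hormones were 0.26 and 0.22. On both BDNF probe sets every pair of groups overlapped, except progesterone and placebo on 1088_at.

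**Figure D1:**
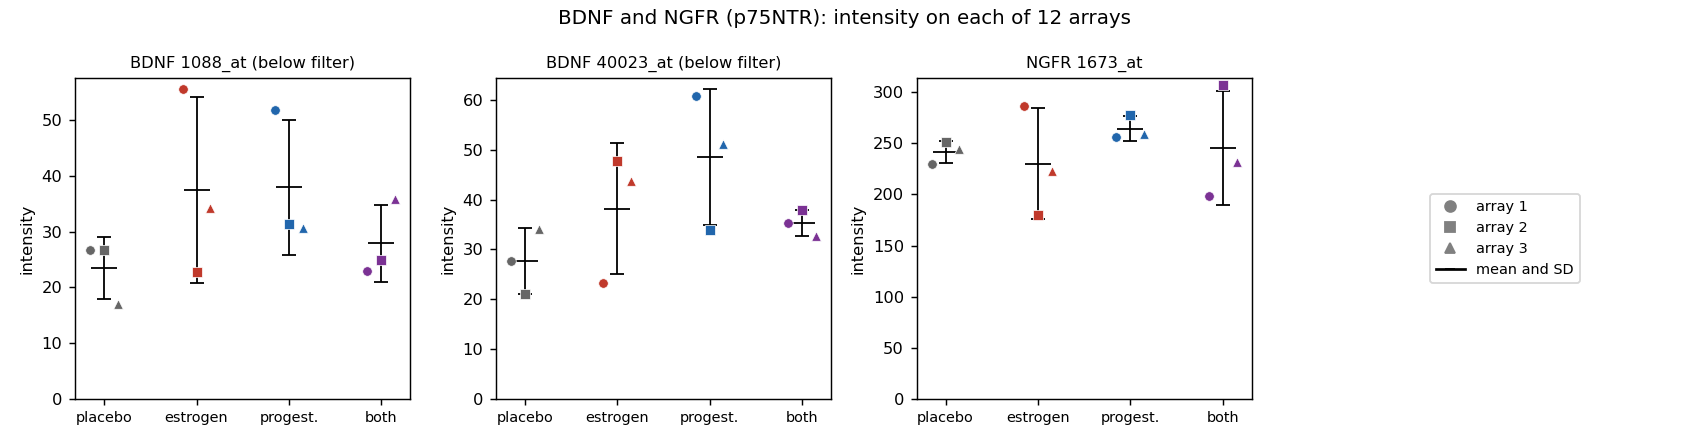
Intensity of the BDNF probe sets 1088_at and 40023_at and of the NGFR probe set 1673_at on each of the 12 arrays, by treatment group. Symbols are single arrays and bars are the group mean and SD of 3 arrays; BDNF stays at or under 60.9 on every array, and NGFR ranges from 180 to 307.

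NTRK2, the receptor of BDNF, was read by 5 probe sets, whose log2 changes with progesterone did not all have the same sign. No pair of the tested ones passed an exact test of a difference in group pattern, given below. The largest log2 change against placebo among the tested members was on 36042_at. Its intensities were 645, 344 and 693 with placebo, 348, 460 and 324 with estrogen, 275, 220 and 219 with progesterone, and 458, 483 and 429 with both hormones. Every progesterone array read below each of the other 9 arrays. The group means were 560 ± 189 (placebo), 456 ± 27.1 (both hormones), 377 ± 72.5 (estrogen) and 238 ± 32.1 (progesterone; SD, n = 3 each). The placebo, both-hormones and estrogen arrays overlapped with one another.

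With progesterone the log2 change of 36042_at against placebo was −1.12 (SE 0.25, 95% interval −1.67 to −0.57), with an unadjusted p of 0.000841 that ranked 21st of 7535 and a limma adjusted p of 0.268. It was lower in 3 of 3 progesterone arrays. Over 24 alternative settings the change ran from −1.44, without placebo array 2, to −0.93, without placebo array 3, and the limma adjusted p from 0.0703 to 0.687. Estrogen gave −0.50 (SE 0.25, limma adjusted p = 1.0) and both hormones −0.20. Adding estrogen to progesterone went with a higher reading: both hormones against progesterone gave 0.92 (SE 0.25, unadjusted p = 0.00354, limma adjusted p = 0.413), with all 3 arrays of both hormones above all 3 of progesterone. The interaction, which is the change with progesterone added to estrogen minus the change with progesterone alone, was 1.42 (SE 0.36, unadjusted p = 0.0019, limma adjusted p = 0.716). Also lower in the progesterone group at an unadjusted p under 0.05 were 4 of 15 tested astrocyte genes and 2 of 9 serotonin neuron genes (4.33% of all probe sets were lower at that p). By sign alone, 7 astrocyte genes were higher and 8 lower, and 2 serotonin neuron genes were higher and 7 lower. The part of these genes in the reading of 36042_at was not tested. The F test of 36042_at over the 4 groups gave an unadjusted p of 0.00455 and a limma adjusted p of 0.504.

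The second NTRK2 probe set that read lower with progesterone was 33182_at. It gave 1050, 738 and 713 with placebo, 750, 890 and 824 with estrogen, 511, 494 and 753 with progesterone, and 755, 720 and 672 with both hormones. Progesterone arrays 1 and 2 were the lowest of the 12, whereas progesterone array 3 lay among the placebo arrays, so the groups overlapped. The log2 change with progesterone was −0.50 (SE 0.20, 95% interval −0.94 to −0.06, unadjusted p = 0.030, limma adjusted p = 0.546), and −0.33 without placebo array 1, the highest reading. Estrogen gave 0.00 and both hormones −0.19, and the group means were 833 ± 187 (placebo), 821 ± 69.7 (estrogen), 716 ± 41.7 (both hormones) and 586 ± 145 (progesterone; SD, n = 3 each).

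The NTRK2 probe sets 1354_at and 1355_g_at had the opposite sign with progesterone. On 1354_at the placebo arrays gave 25.4, 123 and 138, the estrogen arrays 108, 136 and 95.2, the progesterone arrays 150, 78.6 and 156, and those of both hormones 80, 101 and 112. On 1355_g_at the placebo arrays gave 87.4, 500 and 556, the estrogen arrays 375, 397 and 189, the progesterone arrays 742, 288 and 452, and those of both hormones 310, 365 and 344. On both probe sets placebo array 1 was the lowest of the 12, and the other 2 placebo arrays lay inside the range of the progesterone arrays. The log2 change with progesterone was 0.61 (SE 0.46) on 1354_at and 0.63 (SE 0.57) on 1355_g_at. Without placebo array 1 these became −0.05 and −0.17. Estrogen gave 0.47 and 0.05, and both hormones 0.24 and 0.18, on 1354_at and 1355_g_at respectively. Without placebo array 1 the estrogen changes became −0.20 and −0.75, and those of both hormones −0.42 and −0.62.

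The fifth NTRK2 probe set, 38280_s_at, was dim and did not enter the test. Its intensities were 31.9, 40.1 and 49.3 with placebo, 43.8, 6.94 and 32.7 with estrogen, 33.5, 22.4 and 28.3 with progesterone, and 30.7, 10.1 and 24.2 with both hormones. All 3 arrays of both hormones lay below the placebo arrays, and 1 estrogen array read below the offset of 8.26. Without the filter, the limma changes were −0.60 (estrogen), −0.46 (progesterone) and −0.79 (both hormones; SE 0.38, adjusted p = 1.0).

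**Figure D2:**
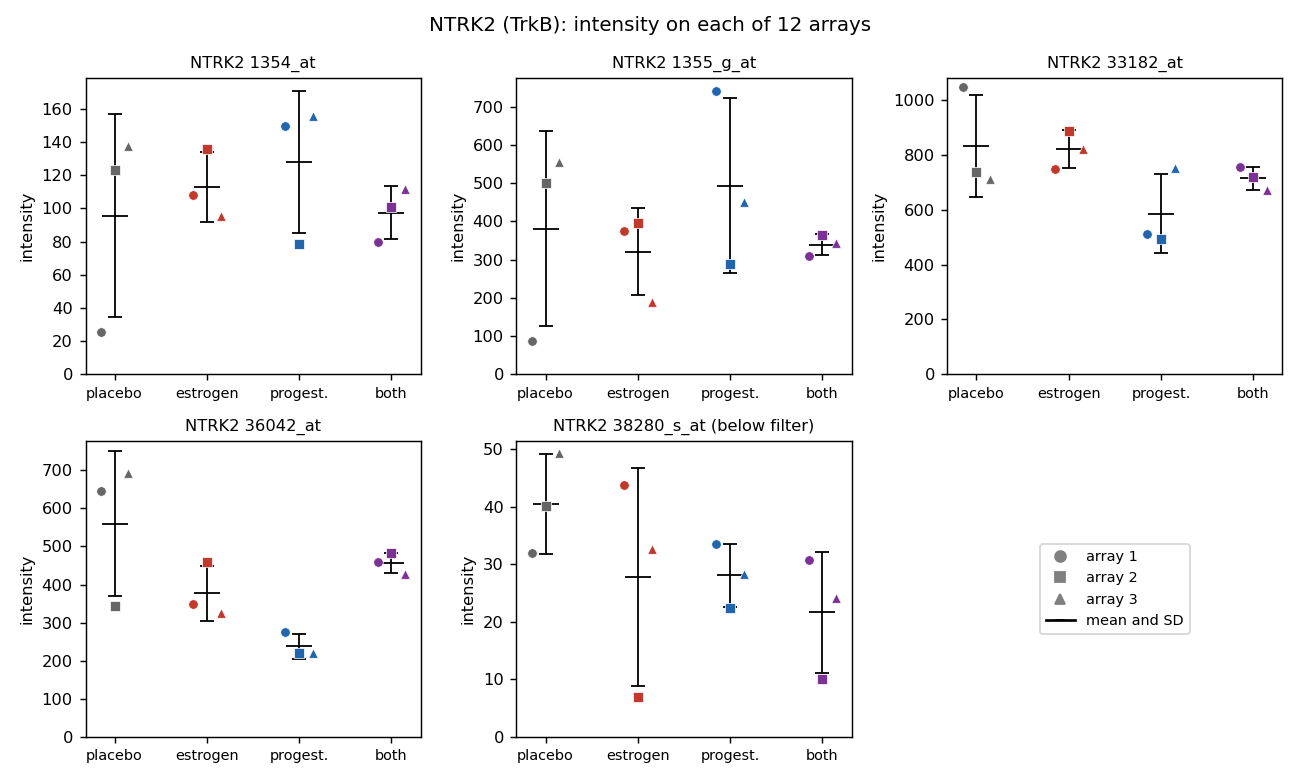
Intensity of the 5 NTRK2 probe sets on each of the 12 arrays, by treatment group, with the group mean and SD of 3 arrays as bars. The progesterone arrays are the lowest on 36042_at (219 to 275), while placebo array 1 is the lowest on 1354_at (25.4) and 1355_g_at (87.4).

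Whether pairs of NTRK2 or NTRK3 probe sets differed in their group pattern was tested on the difference of their log2 values with an exact permutation test over the 15400 divisions of the 12 arrays into 4 groups of 3. These 12 tests were chosen with the values known. None of the 12 passed: the smallest 2-sided exact p was 0.0721, for 1354_at against 36042_at (0.565 after Benjamini-Hochberg adjustment over the 12). The log2 value of 1354_at minus that of 36042_at was −2.64 with placebo and −0.90 with progesterone. The gap thus narrowed by 1.74, and by 0.94 without placebo array 1. Placebo against progesterone alone cannot go below an exact p of 0.1 with 3 arrays each, and this pair gave 0.1. The log2 value of 33182_at minus that of 36042_at went from 0.61 with placebo to 1.23 with progesterone. That gap widened by 0.62, and by 0.65 without placebo array 1 (exact p = 0.138 over the 4 groups). Without placebo array 1, all 4 tested NTRK2 probe sets had a log2 change with progesterone below 0: −0.05, −0.17, −0.33 and −0.98 for 1354_at, 1355_g_at, 33182_at and 36042_at. The changes of 1354_at and 1355_g_at were smaller than their SE (0.28 and 0.37).

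NTRK3, the receptor of neurotrophin-3, had 1 steady and 3 widely varying probe sets among the 4 tested. The steady one, 37839_at, gave 669, 700 and 632 with placebo, 519, 819 and 783 with estrogen, 623, 439 and 551 with progesterone, and 681, 625 and 602 with both hormones. Its 3 progesterone arrays lay below the 3 placebo arrays, and the other groups overlapped with placebo. Progesterone gave a log2 change of −0.30 against placebo (SE 0.19, limma adjusted p = 0.739), and −0.17 without progesterone array 2. Estrogen gave 0.06 and both hormones −0.06, and the group means were 707 ± 164 (estrogen), 667 ± 34.2 (placebo), 636 ± 41.1 (both hormones) and 538 ± 92.9 (progesterone; SD, n = 3 each).

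On NTRK3 1059_at the arrays of placebo gave 55.3, 344 and 316, of estrogen 163, 469 and 350, of progesterone 418, 247 and 240, and of both hormones 153, 376 and 366. On 1060_g_at they gave 33.5, 192 and 149, then 45.2, 194 and 188, then 230, 162 and 220, then 75.8, 110 and 279, in the same order of groups. On 39596_at they gave 51.8, 170 and 144, then 34.5, 217 and 130, then 170, 166 and 160, then 87.2, 166 and 166. Array 1 of placebo, of estrogen and of both hormones was the lowest array of its group on all 3 probe sets, while progesterone array 1 was the highest of its group on each. The log2 changes with progesterone were 0.62 (SE 0.60), 0.96 (SE 0.67) and 0.56 (SE 0.57) on 1059_at, 1060_g_at and 39596_at. Without placebo array 1 they became −0.14, 0.29 and 0.11. Estrogen gave 0.64, 0.18 and −0.16, and both hormones 0.53, 0.33 and 0.24, of which the first was just above its SE and the other 5 were below theirs. Without placebo array 1 the estrogen changes became −0.13, −0.48 and −0.61, and those of both hormones −0.23, −0.34 and −0.22.

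The dim NTRK3 probe set, 32345_at, gave 29.2, 38.7 and 35.3 with placebo, 18.9, 31.2 and 27.4 with estrogen, 44.2, 7.62 and 9.96 with progesterone, and 39.9, 23.7 and 9.03 with both hormones. The progesterone arrays spanned both the highest and the lowest reading of the 12. Fitted without the filter, its log2 changes were −0.40, −0.83 and −0.56 with estrogen, progesterone and both hormones (SE 0.45).

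**Figure D3:**
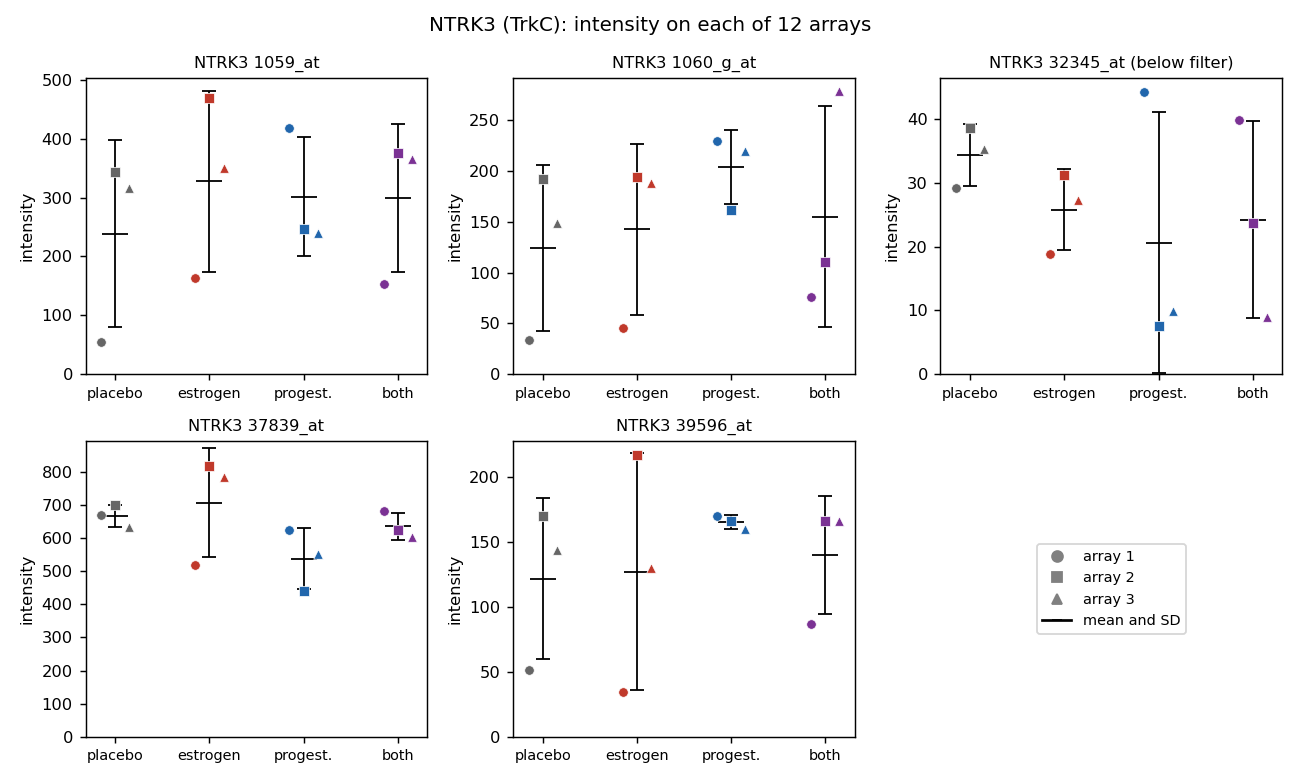
Intensity of the 5 NTRK3 probe sets on each of the 12 arrays, by treatment group, with the group mean and SD of 3 arrays as bars. Array 1 of placebo, estrogen and both hormones is the lowest of its group on 1059_at, 1060_g_at and 39596_at; on 37839_at all arrays lie between 439 and 819, and estrogen array 1 (519) is again the lowest of its group.

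NGFR, the p75 receptor shared by all neurotrophins, varied least between arrays of the 13 probe sets, by 1.7 times from the lowest to the highest. Its probe set 1673_at gave 230, 251 and 244 with placebo, 287, 180 and 223 with estrogen, 256, 278 and 259 with progesterone, and 198, 307 and 232 with both hormones. The 3 progesterone arrays lay just above the 3 placebo arrays, with means of 264.4 ± 12.04 and 241.6 ± 11.01, and the estrogen arrays (230 ± 54.1) and those of both hormones (246 ± 55.7; SD, n = 3 each) spread to both sides. The log2 changes were 0.14 with progesterone (95% interval −0.29 to 0.58), −0.09 with estrogen (−0.52 to 0.35) and 0.00 with both hormones (−0.44 to 0.44). These intervals bound the change of NGFR in either direction without showing that it was equal between groups.

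**Figure D4:**
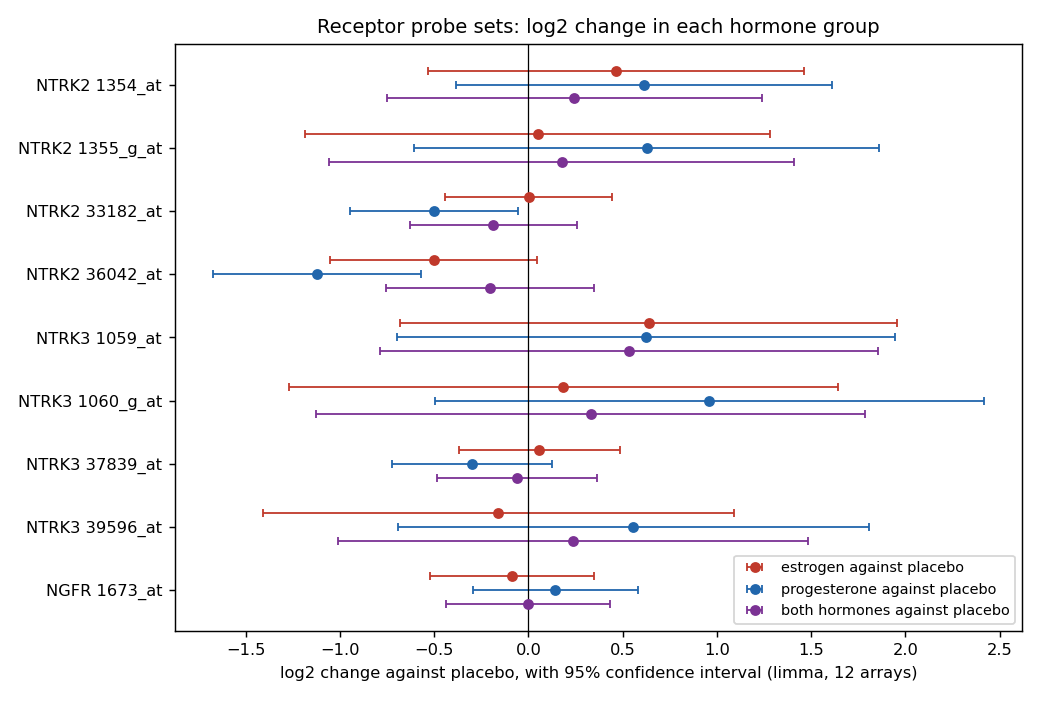
Log2 change against placebo of the 9 tested probe sets in each hormone group, with 95% confidence intervals from limma over 12 arrays. The progesterone intervals of NTRK2 36042_at (−1.67 to −0.57) and 33182_at (−0.94 to −0.06) lie below 0, before any adjustment, and all others include 0.

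The remaining comparisons gave no call among the members either. For both hormones against estrogen, limma called 0 of 9 (0% of all probe sets), 0 passed an unadjusted p under 0.05 (2.87% of all) and 0 had arrays that did not overlap (6.37% of all). For both hormones against progesterone, limma called 0 of 9 (0.0133% of all), 1 passed unadjusted (7.71% of all) and 1 did not overlap (16% of all), in each case NTRK2 36042_at. For the interaction, limma called 0 of 9 (0% of all) and 1 passed unadjusted (4.99% of all), again 36042_at. In the F test over the 4 groups limma called 0 of 9 (0.0531% of all) and 1 passed unadjusted (5.79% of all), the same probe set.

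Readings of the Trk probe sets were related across the 12 arrays, in 36 pairs with permutation p-values adjusted over the 36. The NTRK2 probe sets 1354_at and 1355_g_at went together (Pearson's r = 0.89, permutation p = 0.00053, adjusted 0.0117; Spearman's rho = 0.811, permutation p = 0.00198, adjusted 0.0368), with r = 0.725 without the 2 arrays farthest from the median of 1354_at. These 2 arrays were always chosen on 1 probe set of a pair, the first named unless stated. Whether 1354_at and 1355_g_at, or NTRK3 1059_at and 1060_g_at, share probes was not examined here. Their set numbers are neighbours, and shared probes would by themselves make a pair go together. Among NTRK3 probe sets, 1059_at and 39596_at went together (r = 0.794, permutation p = 0.00602, adjusted 0.031; rho = 0.797, permutation p = 0.00307, adjusted 0.0368), with r = 0.814 without the 2 farthest arrays. In the 9 arrays other than array 1 of placebo, estrogen and both hormones, the NTRK3 pair gave r = 0.437 and the NTRK2 pair 0.724. NTRK3 37839_at and NGFR ran opposite to each other (r = −0.749, permutation p = 0.00539, adjusted 0.031; rho = −0.797, permutation p = 0.00275, adjusted 0.0368), with r = −0.603 without the 2 farthest arrays and −0.716 in those 9 arrays.

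A further 4 pairs passed the adjusted threshold by r but not by rho, each joining NTRK3 1059_at or 1060_g_at to another Trk probe set. Of these, 1060_g_at went with 39596_at (r = 0.897, permutation p = 0.00065, adjusted 0.0117; rho = 0.72, permutation p = 0.0109, adjusted 0.0783; r = 0.717 without the 2 farthest arrays) and 1059_at with 1060_g_at (r = 0.842, permutation p = 0.00137, adjusted 0.0164; rho = 0.643, permutation p = 0.0284, adjusted 0.171; r = 0.69 without the 2 farthest arrays). In the 9 remaining arrays these gave r = 0.195 and 0.0614, and the pairs of NTRK2 1354_at with 1059_at and with 1060_g_at gave 0.171 and 0.39. Without only the 2 arrays of high ribosomal RNA signal, the same 4 pairs gave r = 0.862, 0.837, 0.874 and 0.879, so the lower values appeared once placebo array 1 was left out as well. Leaving out the lowest readings also narrows the range over which r is taken, and r without placebo array 1 alone was not computed. NTRK2 36042_at followed neither 1354_at (r = −0.404, permutation p = 0.199, adjusted 0.326; rho = −0.392, permutation p = 0.208, adjusted 0.498; r = 0.216 without the 2 arrays farthest on 1354_at) nor 1355_g_at (r = −0.304, permutation p = 0.343, adjusted 0.515; rho = −0.126, permutation p = 0.698, adjusted 0.88; r = 0.291 without the 2 arrays farthest on 1355_g_at). All pairs share the same arrays.

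**Figure D5:**
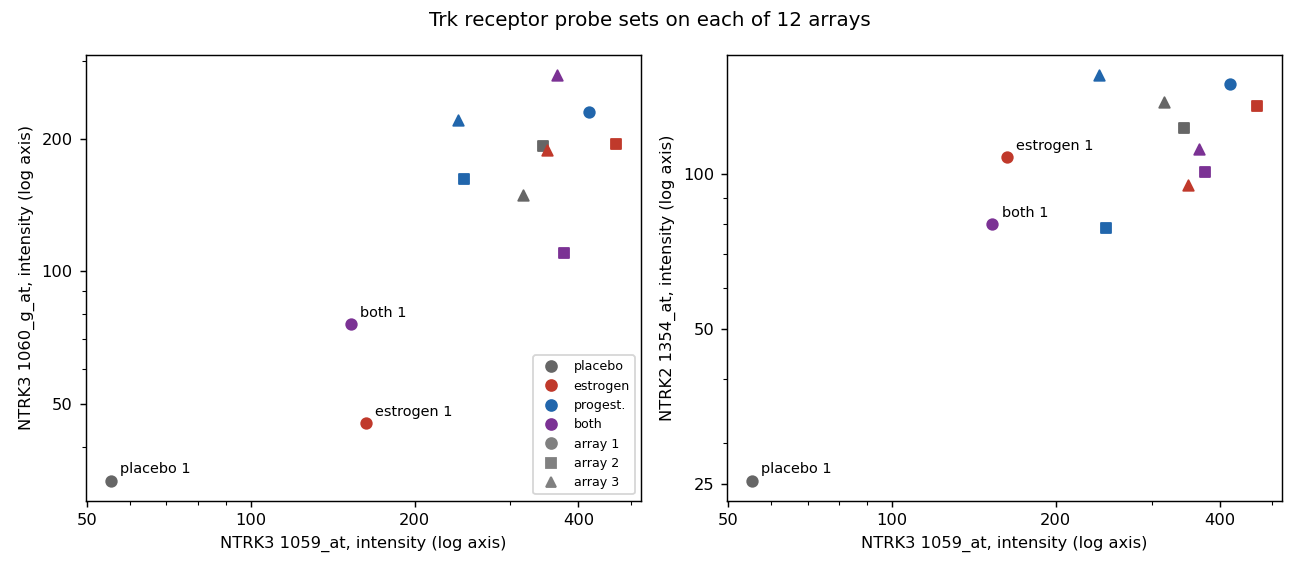
Intensity of NTRK3 1059_at (horizontal, log axis) against NTRK3 1060_g_at (left, log axis) and NTRK2 1354_at (right, log axis) on each of 12 arrays, coloured by group with a symbol for each array number. Array 1 of placebo, estrogen and both hormones, named beside their points, has the 3 lowest readings of 1059_at (55.3, 163 and 153).

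Of 8 further genes listed beside the neurotrophins and their receptors, 2 were named on the array. Both are sorting receptors of the VPS10 family to which sortilin belongs, not neurotrophins. SORL1 had mean intensities on 32140_at of 904 ± 369 (placebo), 1597 ± 144 (estrogen), 1027 ± 132 (progesterone) and 1314 ± 228 (both hormones; SD, n = 3 each). Its log2 change with estrogen was 0.91 (SE 0.29, unadjusted p = 0.00894, limma adjusted p = 1.0), while its other probe set gave −0.09. With estrogen, 3.16% of all probe sets passed an unadjusted p under 0.05. All estrogen arrays lay above placebo on 32140_at (6.09% of all probe sets did not overlap). Both hormones gave 0.62 on 32140_at, also with all arrays above placebo (8.61% of all did not overlap), and progesterone gave 0.24. Its values without placebo array 1 are not given here. SORCS3 gave −0.13, −0.27 and 0.14 with estrogen, progesterone and both hormones.

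Genes that process the neurotrophin precursors were measured by 5 tested probe sets of 15 genes listed, and limma called none in any comparison with placebo. With progesterone 2 were higher and 3 lower (median −0.22), none at an unadjusted p under 0.05 (8.24% of all probe sets passed it). PLAT, the tissue plasminogen activator that activates the protease plasmin, gave −0.35, its inhibitor SERPINI1 (neuroserpin) −0.27, and carboxypeptidase E (CPE), a sorting receptor for the BDNF precursor, −0.22. With estrogen and with both hormones 1 was higher and 4 were lower. FURIN, a protease that cuts the precursors, gave −0.40 with estrogen (SE 0.44).

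Of 60 adaptors and effectors of Trk signalling, 41 were tested and limma called 0 in each direction in each comparison with placebo. With progesterone 29 were higher and 12 lower (median log2 change 0.07), where 3795 of all probe sets were higher and 3740 lower. The split without placebo array 1 is not given here. At an unadjusted p under 0.05, 2 were higher (3.92% of all probe sets were). These were the adaptor GRB2, at 0.58 (SE 0.16, unadjusted p = 0.00317, limma adjusted p = 0.352), and PIK3R1, the regulatory subunit of PI3 kinase, at 0.55 (SE 0.23, limma adjusted p = 0.560). Second probe sets gave 0.13 for GRB2 and 0.56 for PIK3R1. MAPK3 (ERK1) gave 0.39. With estrogen and with both hormones 21 were higher and 20 lower, and none passed unadjusted (3.16% and 3.38% of all probe sets did). For both hormones against progesterone, which uses the same progesterone arrays, 11 were higher and 30 lower. Of these, 3 were lower at an unadjusted p under 0.05 (7.71% of all probe sets passed it in either direction).

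Of 42 adaptors and effectors of p75NTR signalling, 22 were tested and limma called 0. With progesterone 14 were higher and 8 lower (median 0.14), and 4 were higher at an unadjusted p under 0.05, against 3.92% of all probe sets. The smallest p-values were those of the initiator caspase CASP9, at 0.71 (SE 0.25, limma adjusted p = 0.526), the JNK family kinase MAPK10, at 0.49 (SE 0.19, limma adjusted p = 0.528), and the 14-3-3 protein YWHAE, at 0.57 (SE 0.25, limma adjusted p = 0.576). Other tested probe sets gave 0.265 for CASP9, and 0.526 and 0.12 for MAPK10. With estrogen 12 were higher and 10 lower, and with both hormones 13 and 9. YWHAE gave 0.54 with estrogen and 0.56 with both hormones, the latter at an unadjusted p under 0.05 (limma adjusted p = 0.999). With both hormones, 3.38% of all probe sets passed that p.

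Other neurotrophic factors and their receptors had 16 tested of 21, with 8 higher and 8 lower with progesterone and 0 called by limma. The LIF receptor (LIFR) was higher by 0.69 and the growth factor midkine (MDK) gave −0.68, both at an unadjusted p under 0.05 (limma adjusted p = 0.560 and 0.558). At that p, 3.92% of all probe sets were higher and 4.33% lower. Another tested probe set of MDK gave −0.291. With estrogen 6 were higher and 10 lower, and with both hormones 7 and 9, none at an unadjusted p under 0.05. Of all probe sets, 3.16% passed that p with estrogen and 3.38% with both hormones.

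Marker genes of cell types were read beside the receptor probe sets. Of 15 tested astrocyte genes, 7 were higher and 8 lower with progesterone, 4 of them lower at an unadjusted p under 0.05, against 4.33% of all probe sets: GFAP, the astrocyte filament, at −0.42, the transcription factor SOX9 at −0.80, glutamine synthetase (GLUL) at −0.45 and the growth factor receptor FGFR3 at −0.52. The summed intensity of the astrocyte genes was 23110 to 26410 with placebo, 23150 to 25460 with estrogen, 24460 to 28170 with progesterone and 25190 to 27190 with both hormones, so the groups overlapped.

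Of 9 tested serotonin neuron genes, 2 were higher and 7 lower with progesterone, with SLC6A4 at −0.58 and the transcription factor GATA3 at −0.62 passing an unadjusted p under 0.05, against 4.33% of all probe sets lower at that p. Their summed intensity, with TPH1 counted in (10 genes), was 1261 to 1404 on the progesterone arrays, below the 1429 to 1769 of placebo and the 1486 to 1774 of estrogen, and overlapped with the 1370 to 1760 of both hormones. TPH1, a form of the serotonin-making enzyme, read 3.6 or less on every array, and the brain form TPH2 was not analysed here.

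With progesterone, 9 of 16 general neuron genes were higher and 7 lower, against 6 and 4 of 10 oligodendrocyte genes, 2 and 3 of 5 genes of their precursors, 8 and 2 of 10 microglia genes, and 5 and 4 of 9 vessel genes. Meningeal genes were split 2 and 1, ependymal genes 2 and 1, catecholamine neuron genes 0 and 4, and cerebellar genes 3 and 4. NGFR also marks Schwann cells: of that list 2 genes were tested, NGFR itself and SOX10, with 1 higher and 1 lower, and the Schwann gene CDH19 read 8.85 to 37.8. With estrogen, 12 general neuron genes were higher and 4 lower, against 2 and 8 oligodendrocyte genes and 4 and 6 microglia genes. Precursor genes were split 3 and 2, vessel genes 4 and 5, meningeal genes 3 and 0 and ependymal genes 2 and 1. Catecholamine neuron genes were split 3 and 1 and cerebellar genes 6 and 1 (median 0.33). Of these, 1 vessel and 1 cerebellar gene (ZIC1, 1.10, SE 0.45) were higher at an unadjusted p under 0.05 (3.16% of all). Limma called none of these marker genes in any comparison with placebo. Outside the astrocyte and serotonin lists, 1 precursor gene (higher) and 2 microglia genes (1 in each direction) had an unadjusted p under 0.05 with progesterone. Of all probe sets, 8.24% passed that p with progesterone.

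The genes whose pattern over the 12 arrays was most like each receptor probe set, among 6680 single-symbol tested probe sets of other genes, are given as a description with no test, since they are the extremes of a large search. For NTRK2 36042_at they were FGFR3 (r = 0.875, rho = 0.872), the actin gene ACTB (r = 0.871, rho = 0.902) and NDRG4 (r = 0.862, rho = 0.874). For 33182_at they were AHCYL1 (r = 0.893), PEBP1 (r = 0.876) and ODF1 (r = 0.87), for 1354_at FBLN1 (r = 0.908), HS6ST1 (r = 0.899) and LSM4 (r = 0.897), and for 1355_g_at TCF7L2 (r = 0.894), TMEM109 (r = 0.879) and MAPKAPK2 (r = 0.876). None of the 3 genes nearest to 1 NTRK2 probe set was among the 3 nearest to another.

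For NTRK3, the nearest genes to 37839_at were ESYT1 (r = 0.904), MARCKS (r = 0.898) and ZMIZ1 (r = 0.891). Those nearest to 1059_at were THOC2 (r = 0.961), KIF3B (r = 0.959) and TNPO3 (r = 0.958). PHF20 was among the nearest 3 of both 1060_g_at (r = 0.922, after BCR at 0.925 and before NFIC at 0.909) and 39596_at (r = 0.93, after CDC42EP4 at 0.959 and HMGN4 at 0.945). For NGFR they were PPM1F (r = 0.878), the growth factor IGF1 (r = 0.877) and MTMR11 (r = 0.852).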

How the data were processed

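The deposited table holds 1 intensity per probe set and array for 12625 probe sets. Its unit, intensity on a linear scale, was taken from the values, which have the same 2% trimmed mean (200.1) on every array, so the authors scaled the arrays to a common level; the sources used here name neither the summary method nor its software. Gene symbols are those of the platform table (10943 probe sets with 1 symbol, 545 with several, 1070 with none, 67 controls left out) and were not updated.

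From these values, log2(intensity + 8.26) was computed, where 8.26 is the pooled 10th percentile, and the arrays were quantile-normalized. The dimmest 40% of probe sets by mean (5023) were dropped and limma was fitted on the 12 arrays in 4 groups, 2-sided, with Benjamini-Hochberg adjustment over 7535 probe sets. This procedure was first tested on simulated data. The replicates are separate monkeys, and their number, 3 per group, limits the precision.

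Members, gene lists and marker lists were chosen with earlier results of these data known. Every member probe set was named, with the 3 most similar genes for each tested one and, from each pathway list, up to 3 genes with the smallest p in each comparison with placebo. A listed gene was counted by its brightest tested probe set. The tests between probe sets of 1 gene and the values without placebo array 1 together with both arrays of high ribosomal RNA signal were chosen after the values were seen. Array numbers are those of the labels, which do not say that they pair animals. Over 18 pairs of same-numbered arrays, deviations from the group means correlated at −0.22 to 0.41 (median 0.01). For estrogen with both hormones every same-numbered pair was over 0.1 (0.133 to 0.407), array 1 of each being a ribosomal RNA array. Of the 6 differently numbered pairs of these groups, 2 were over 0.1 as well (range −0.351 to 0.207). After this check a fit of those 2 groups with the number as a block was added. No other pair of groups had all 3 same-numbered pairs over 0.1. Alternatives changed the offset, normalization, filter, arrays fitted, variance model, array weights and replicate block, and left out arrays. R 4.3.3, limma 3.58.1, Python 3.11.15, numpy 2.4.6 and matplotlib 3.10.9 were used.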

Additional observations from a re-analysis of the deposited data

How the results depend on the processing

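No member probe set was called under any of the 25 alternative settings, in 1496 alternative values. Of 54 log2 changes, 37 were smaller than their SE, and the sign of such a change is given as a description only. Leaving out placebo array 1 with both arrays of high ribosomal RNA signal gave the other sign for 16 of the 54, of which 4 were at least as large as their SE: NTRK2 1354_at became −0.12 with estrogen and −0.047 with progesterone, 1355_g_at −0.17 and NTRK3 1059_at −0.14 with progesterone. Of the 12 smaller ones, 1355_g_at became −0.89 with estrogen and −0.56 with both hormones, 1354_at −0.27 with both hormones, NTRK3 39596_at 0.15 with estrogen and NGFR 0.13 with both hormones, and the other 7 belong to both hormones against 1 hormone and to the interaction. Leaving out each array in turn gave −0.20 to 0.83 for 1354_at with estrogen, −0.13 to 1.09 for 1059_at with estrogen, and, with progesterone, −0.048 to 0.98 for 1354_at, −0.17 to 1.07 for 1355_g_at and −0.14 to 1.03 for 1059_at, each lowest without placebo array 1. With estrogen and both hormones fitted alone and the replicate number as a block, 0 members and 0 of all probe sets were called, and the members ranged from −0.22 to 0.39. With the replicate block over all groups, NTRK2 36042_at gave −1.12 with progesterone (limma adjusted p = 0.301).

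Calls over all probe sets were few and moved with the settings. With progesterone there were 3, against 5 with no filter, 6 with array weights, 11 without both arrays of high ribosomal RNA signal, 1 without those and placebo array 1, 1 without quantile normalization, 1 with the dimmest 60% left out, 0 with the replicate block and 0 to 6 leaving out each array. For both hormones against placebo there was 1, against 2 without quantile normalization or with array weights, 0 with no filter, with the dimmest 60% left out, with only these groups fitted or without the ribosomal RNA arrays, and 0 to 2 leaving out each array. For both hormones against progesterone there was 1, against 6 with no filter or without those 3 arrays, 12 with array weights, 3 with only these groups fitted, 2 with a robust variance trend, 0 with the dimmest 60% left out or the replicate block, and 0 to 3 leaving out each array. The F test gave 4, against 10 with array weights, 2 without quantile normalization, without the ribosomal RNA arrays or with a robust trend, 0 with a common median, with the dimmest 60% left out or with the replicate block, and 0 to 4 leaving out each array. The interaction gave 0, against 1 with no filter, 2 with array weights, 2 without those 3 arrays and 0 to 1 leaving out each array, and both hormones against estrogen gave 0, against 0 to 2 leaving out each array. Estrogen against placebo gave 0 throughout. The low signal of BDNF, near the dim end of the array, limits what could be read of it.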
